A study of Mus musculus with 4 samples.

Results

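The cells described here are tumour neutrophils that do not carry the Il1a-rich state. They were chosen by transcript counts from 36694 cell barcodes of mouse melanoma. A barcode was kept if it showed 300 genes or more and if no more than 10% of its unique molecular identifiers (UMIs, 1 per captured transcript molecule) came from mitochondrial genes, which left 35411. Among these, a neutrophil had at least 10 UMIs of S100a8 and S100a9 together, at least 1 of Csf3r, at most 1 of Csf1r and 0 of Cd3d, Cd3e and Cd3g. Of 1283 such cells, the 1047 with fewer than 3 UMIs of Il1a are the members, 2.96% of the kept barcodes. The other 236 carry 3 or more and are used only for comparison.

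Each of the 4 libraries pools tumours of 6 mice bearing B16-F10, a melanoma cell line of the mouse, and holds live CD45+ (immune) cells sorted from them and captured with the 10x Genomics 5′ chemistry. The control mice received dilution buffer in the tumour and an IgG antibody into the vein. The CD40 library comes from mice given an antibody to CD40 in the tumour, the PD1 library from mice given an antibody to PD1 intravenously, and the combination library from mice given both. Doses fell on days 8 and 11, tumours were taken on day 14, and 1 pooled library per treatment leaves no replicate, so no p-value is given and every interval covers counting error only.

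Neutrophils are short-lived granulocytes made in the bone marrow. They leave it with preformed granules, are called into tissue by chemokine ligands of CXCR2, and there sense microbial and inflammatory signals through receptors such as formyl peptide and Toll-like receptors. Interferons act on them through transcription factors that bind palindromic GAS elements and ISRE elements in promoters, and switch on guanylate-binding proteins, immunity-related GTPases and the MHC class I pathway. In tumours, neutrophils have been described both as promoters and as restrainers of growth, and interleukin 1 alpha, encoded by Il1a, is a cytokine that starts inflammation when released.

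The sequences shown next are promoters of interferon-response genes, because genes of these lists differed widely between the libraries. Each is the stretch from 250 bases before to 50 bases after the first listed start site (RefSeq, build GRCm38.p6), 5′ to 3′ on the strand of the gene, with matches to either of a pair of motifs in capitals. The GAS motif was searched as TTCNNNGAA, which reads the same on both strands. The ISRE motif was searched as GAAANNGAAA and its reverse complement TTTCNNTTTC. Matches that overlap run together as 1 stretch of capitals. Gbp2 (chr3:142620413-142620712, plus strand) holds 1 ISRE match, Irf1 (chr11:53769764-53770063, plus) 1 GAS match and Socs1 (chr16:10785487-10785786, minus) 2 overlapping ISRE matches. Igtp (chr11:58199306-58199605, plus) holds a GAS match that starts 45 bases before the start site and an ISRE match that starts 34 bases before it.
Gbp2: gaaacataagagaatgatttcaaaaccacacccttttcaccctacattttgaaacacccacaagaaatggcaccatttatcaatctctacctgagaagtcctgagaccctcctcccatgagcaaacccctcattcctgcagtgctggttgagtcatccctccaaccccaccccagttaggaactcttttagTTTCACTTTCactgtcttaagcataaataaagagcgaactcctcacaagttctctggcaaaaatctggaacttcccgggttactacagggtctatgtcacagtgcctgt
Irf1: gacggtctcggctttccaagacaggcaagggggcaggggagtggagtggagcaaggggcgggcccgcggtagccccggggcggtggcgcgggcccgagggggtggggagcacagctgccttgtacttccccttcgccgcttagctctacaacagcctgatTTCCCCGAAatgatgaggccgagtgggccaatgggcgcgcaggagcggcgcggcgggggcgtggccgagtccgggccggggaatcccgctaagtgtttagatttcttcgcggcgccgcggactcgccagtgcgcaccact
Socs1: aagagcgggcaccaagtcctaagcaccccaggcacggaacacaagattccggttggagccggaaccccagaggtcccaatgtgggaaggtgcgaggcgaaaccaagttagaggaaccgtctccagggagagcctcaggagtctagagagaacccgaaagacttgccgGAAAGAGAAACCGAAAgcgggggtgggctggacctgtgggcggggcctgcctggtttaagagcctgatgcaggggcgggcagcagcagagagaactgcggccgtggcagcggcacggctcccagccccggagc
Igtp: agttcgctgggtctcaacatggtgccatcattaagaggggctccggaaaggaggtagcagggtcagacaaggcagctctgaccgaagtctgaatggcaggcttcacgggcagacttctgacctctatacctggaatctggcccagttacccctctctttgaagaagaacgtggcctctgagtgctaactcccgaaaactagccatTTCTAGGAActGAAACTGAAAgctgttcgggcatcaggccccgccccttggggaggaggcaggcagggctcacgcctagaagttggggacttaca

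Of the 22 genes of the interferon gamma response list, 15 had a promoter in the table. An ISRE match lay in 11 of the 15 and a GAS match in 8. Over all 27025 promoters the shares were 3.49% and 8.47%. The type I interferon list had 8 of 15 with an ISRE match and 3 with a GAS match, and the MHC class I list 4 and 1 of 14. The NF-kB list had 0 and 4 of 15, and the stefin and cystatin list 0 and 1 of 8. These matches describe letters in a window and were not tested for binding. No match was found in the windows of Cd274, Tap1 and H2-K1, which says only that these letters are not there.

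Members were counted in all 4 libraries. There were 154 in the control library, 297 with CD40 antibody, 118 with PD1 antibody and 478 with the combination. These made up 1.96% (exact 95% interval 1.67 to 2.29) of kept control barcodes, 3.76% (3.35 to 4.20) with CD40, 1.19% (0.984 to 1.42) with PD1 and 4.92% (4.50 to 5.37) with the combination. The share was thus 1.91 times the control share with CD40 antibody and 4.14 times the PD1 share with the combination, while PD1 antibody alone stood at 0.605 times the control share. The combination also held the cells set aside by the rule: counting those too, its neutrophil share was 6.14 times that of PD1 and 1.91 times that of CD40, against 1.31 times for members.

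**Figure D1:**
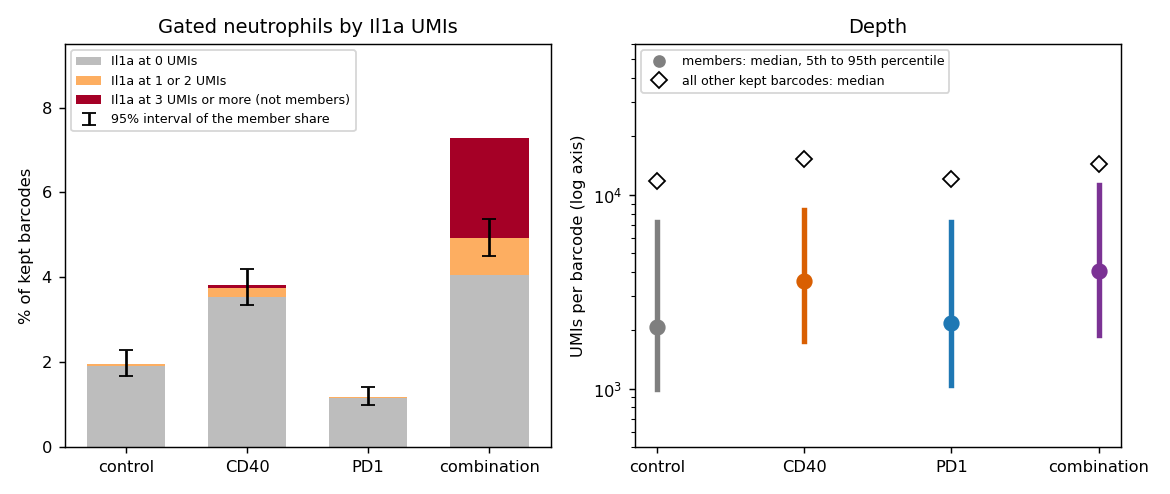
Left, neutrophils as a percentage of kept barcodes in each library, stacked by the Il1a UMIs of the cell, with the exact 95% interval of the member share (Il1a under 3). Right, UMIs per member on a log axis (median and 5th to 95th percentile) beside the median of all other kept barcodes. The combination bar reaches 7.29% of kept barcodes, and members are shallower than other cells in all 4 libraries.

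Il1a (chr2:129299610-129309972, minus strand, GRCm38) was at 0 UMIs in 150 of the control members, 280 of the CD40 members, 115 of the PD1 members and 393 of the combination members. Just inside the threshold, at 2 UMIs, lay 1, 5, 1 and 31 cells in the same order. Just outside, at 3 UMIs, lay 0, 3, 0 and 22. The cut therefore runs through a continuous range of counts in the combination library and removes 231 of its 709 neutrophils, but 5 of 302 with CD40 and none in the control and PD1 libraries. Cells that met the rule except for having 0 UMIs of Csf3r numbered 22, 93, 32 and 154, and those with 2 UMIs of Csf1r 6, 22, 6 and 29.

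Depth differed between libraries. The median member had 2090.5 UMIs in the control library, 3570 with CD40, 2185.5 with PD1 and 4027.5 with the combination, against 11726 to 15357 for all other kept barcodes. A deeper cell reaches the UMI thresholds of the rule more readily, and the part of these depth gaps in the shares above was not tested. From 94 to 144 barcode sequences occurred in both libraries of a pair, none of them as a member in both. No barcode was removed as a doublet; Scrublet scored 1, 2, 1 and 4 members at 0.25 or more. A few members were far deeper than the rest: 10, 9, 7 and 19 barcodes had over 3 times the median UMIs of their library's members, and they held 31.3%, 13.3%, 34.4% and 15.8% of all member UMIs. In summed counts these deep barcodes carried transcripts of other cells, so results they touch are also given without them, an alternative added after seeing the data.

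The neutrophil label was checked on 13 markers that the rule did not use. Their summed level was 11539 CPM (UMIs of a gene scaled to a total of 1000000 member UMIs) in control, 14521 with CD40, 12990 with PD1 and 20067 with the combination, against 438 to 1053 CPM in all other kept barcodes of the same libraries. Cxcr2, the chemokine receptor that draws neutrophils into tissue, stood at 745, 639, 743 and 739 CPM. After every cell was thinned to 1000 UMIs, a Cxcr2 UMI was seen in 41.0% to 55.2% of members, and in at most 0.23% of T cell barcodes (3 or more UMIs of the Cd3 genes), whose median depth was 8264 to 13541 UMIs before thinning. Mononuclear phagocyte markers other than Csf1r summed to 967 to 2062 CPM, against 5465 to 8749 CPM in the other barcodes. T cell receptor and CD4 or CD8 markers summed to 20.1 to 39.5 CPM, against 420 to 1197 CPM. The neutrophil list thus goes with the label in every library. The rule itself capped Csf1r and removed cells with UMIs of the Cd3 genes. Low levels of the mononuclear phagocyte and T cell lists can follow from that selection, so these lists are no independent check of the label. Other lineages are given next. Outside the genes of the rule and the ferritin chains, abundant genes of members included Srgn, the proteoglycan that packs granule contents, at 7052, 5958, 6975 and 10312 CPM against 1211 to 1804 CPM in the other barcodes. Cebpb, the transcription factor of emergency granulopoiesis, had 3001, 3036, 2964 and 4691 CPM and was highest in the combination.

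Dendritic cell markers went against the label in the PD1 library, at 1169 CPM in members against 225 CPM in the other barcodes. They summed to 387 CPM in control members, against 460 CPM, and to 11.7 and 7.98 CPM with CD40 and the combination. Without the deep barcodes they lay at 0 to 6.32 CPM in all 4 libraries. B cell markers were also above the other barcodes, at 201 against 91.5 CPM in control, 112 against 34.3 CPM with CD40 and 113 against 26.4 CPM with the combination. Without the deep barcodes the B cell list was at 0 to 4.03 CPM in the 4 libraries. NK cell markers summed to 1284 CPM in the combination, against 1888 CPM in the other barcodes, and to 76.8 CPM without the deep barcodes. The deep barcodes thus hold most of these foreign transcripts, and they sit in different libraries for different lineages. Melanoma markers exceeded the other barcodes in the combination, at 21.4 against 16.4 CPM. Red cell and platelet markers did so with CD40 (19.6 against 3.42 CPM), PD1 (13.2 against 10.1) and the combination (5.04 against 2.61). Eosinophil, mast cell and basophil markers did so in control (8.95 against 3.51 CPM) and the combination (2.52 against 1.67). These levels rest on 4 to 51 UMIs and were not lower without the deep barcodes. Elsewhere these lists lay below the other barcodes.

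**Figure D2:**
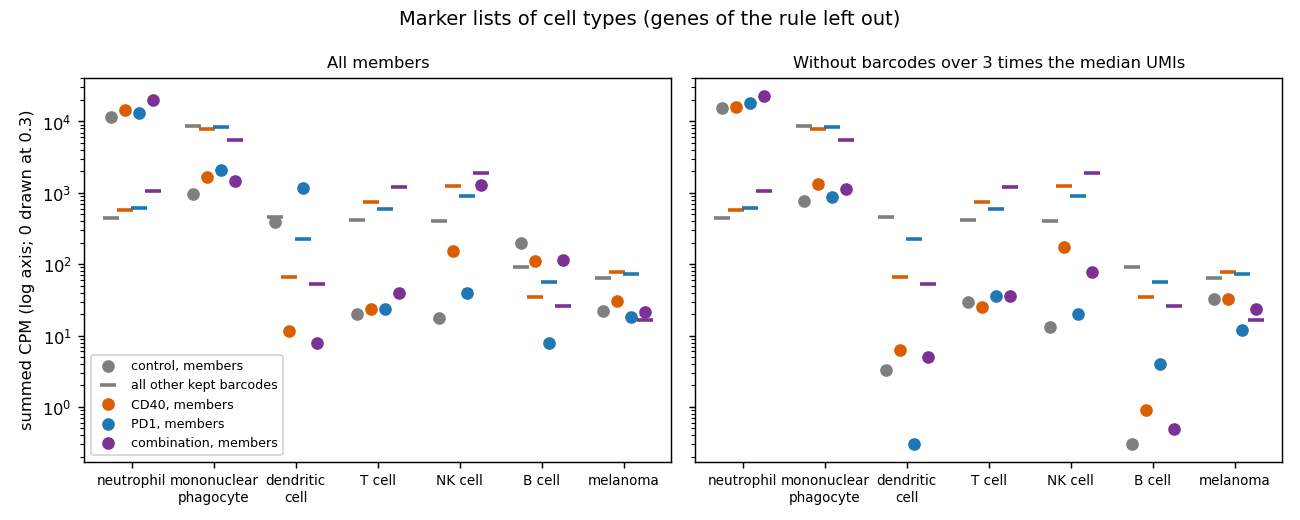
Summed CPM of cell type marker lists on a log axis (0 drawn at 0.3), for members (points) and all other kept barcodes (bars) of each library, with all members on the left and without the deep barcodes on the right. Dendritic cell markers fall to 6.32 CPM or less on the right, and the neutrophil list lies far above the other barcodes in both panels.

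With CD40 antibody, members carried far more transcripts of interferon gamma response genes. This held in both comparisons that isolate this antibody, CD40 against control and combination against PD1, which share no library. A gene counts as higher or lower when it differs by 2-fold or more with a counting interval off 0, among genes with at least 30 UMIs over the pair. In CD40 against control, 19 of the 21 list genes tested were higher and 1 was lower, against 4.87% of all 5321 genes higher and 6.88% lower. In combination against PD1, 17 of 22 were higher and 2 lower, against 4.43% and 12.7% of 6323 genes. Genes called higher made up 41.4% and 25.9% of all genes called in these comparisons, and 73.1% and 70.4% under trimmed mean (TMM) scaling, which moved the median of all genes to 0.15 in both. The median log2 ratio of the list was 2.64 and 1.45, where the median over all genes tested was -0.14 and -0.33. When the deep barcodes were left out 19 of 19 and 19 of 20 were higher, against 6.16% and 5.57% of all genes tested there (5.12% and 10.4% lower). The list medians were then 2.79 and 1.87, so the list stood as high or higher.

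Gbp4 (chr5:105115767-105139586, minus strand) encodes a guanylate-binding protein, a GTPase that attacks membranes of intracellular microbes. It stood at 8.95 CPM (4 UMIs) in control, 319 CPM with CD40, 50.2 CPM with PD1 and 770 CPM with the combination. The log2 ratio was 5.16 (3.79 to 7.04) for CD40 against control and 3.94 (3.29 to 4.67) for combination against PD1. Both libraries with CD40 antibody were high and the others low, and 84.2% of the PD1 UMIs came from 3 cells. Gbp8, another member of the family, had 6.71, 196, 18.5 and 323 CPM, in the same order of libraries. Its annotated span overlaps that of Gbp4 on the same strand, so the split of reads between them is uncertain.

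Gbp2 (chr3:142620602-142638008, plus strand), whose promoter is printed above, was more abundant at 105, 1094, 783 and 2237 CPM. Its log2 ratio was 3.38 (2.96 to 3.83) and 1.52 (1.35 to 1.69). Of the 783 CPM in the PD1 library, 68.9% came from 3 cells, and without the deep barcodes PD1 stood at 318 CPM and the log2 ratio of combination to PD1 was 2.97. In cells thinned to 1000 UMIs, a Gbp2 UMI was seen in 6.9% of control members, 47.8% with CD40, 12.2% with PD1 and 70.6% with the combination. T cell barcodes, which express the gene as well, stood at 9.45% to 14.5%, so the control and PD1 shares lie near the level of another cell type.

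The regulators Irf1 and Socs1 were also higher with CD40 antibody in both comparisons. Irf1, a transcription factor that drives many of these genes, had 219, 678, 497 and 1316 CPM, with log2 ratios of 1.63 (1.32 to 1.94) and 1.40 (1.19 to 1.62). Socs1, a feedback inhibitor of the pathway, had 29.1, 210, 204 and 599 CPM, so either antibody alone went with a similar level and the combination was above both.

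Among surface and secreted products, Cd274 (chr19:29367455-29388095, plus strand) encodes PD-L1, the ligand of PD1. It stood at 376 CPM in control, 1243 with CD40, 809 with PD1 and 1964 with the combination, with log2 ratios of 1.73 (1.50 to 1.96) and 1.28 (1.11 to 1.45). In thinned cells a Cd274 UMI was found in 14.5%, 50.2%, 38.3% and 68.3% of members and in 5.89% to 8.05% of T cell barcodes. Cxcl10, a chemokine for activated T cells, had 11.2, 154, 373 and 834 CPM, but 3 cells held 93.6% of its PD1 UMIs and all 5 control UMIs. In thinned cells a Cxcl10 UMI was seen in 0.69% (0.017 to 3.78) of control members, 5.08% (2.87 to 8.25) with CD40, 6.09% (2.48 to 12.1) with PD1 and 16.4% (13.1 to 19.98) with the combination, against 2.44%, 1.80%, 4.30% and 2.25% of T cell barcodes of the same libraries. The control and PD1 intervals held the T cell value of their own library, the CD40 interval lay above its own and overlapped that of PD1, and the combination had the highest share.

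**Figure D3:**
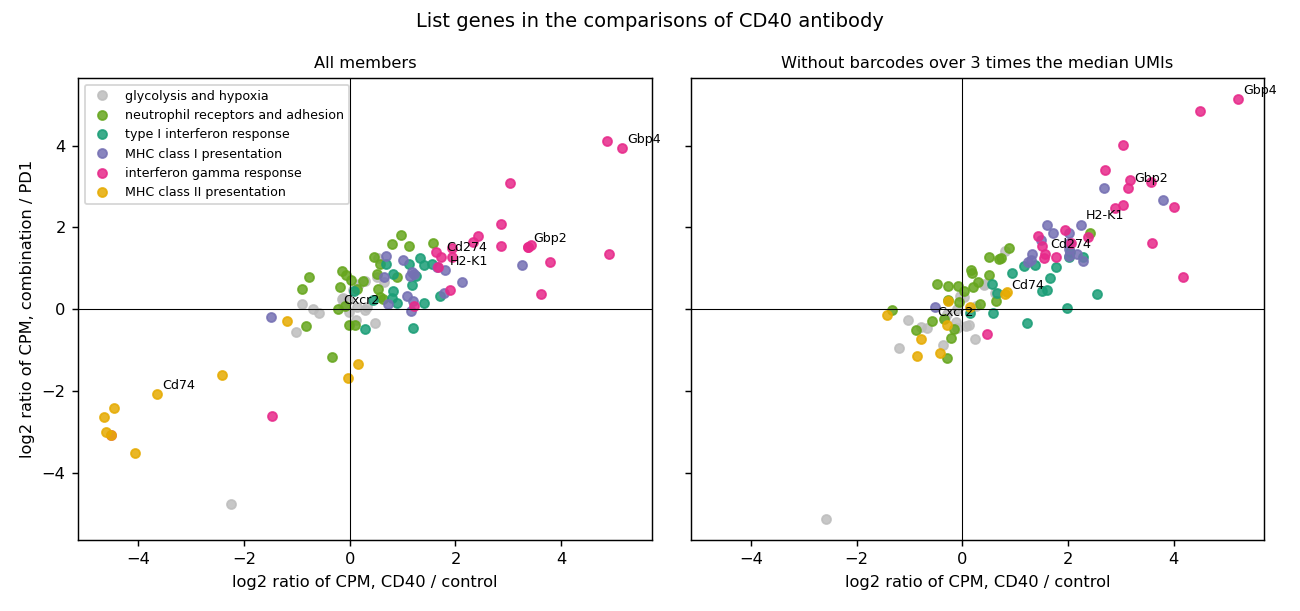
Log2 ratio of CPM in CD40 against control (horizontal) and combination against PD1 (vertical) for genes of 6 lists, each point a gene, with all members on the left and without the deep barcodes on the right. Interferon gamma genes spread to the upper right in both panels, and MHC class II genes such as Cd74 leave the lower left once the deep barcodes are left out.

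MHC class I genes were also higher. In CD40 against control 12 of 16 list genes were higher and Calr was lower, and in combination against PD1 4 of 16 were higher. Among all genes 4.87% and 4.43% were higher. With the deep barcodes left out 15 of 16 were higher in both comparisons, against 6.16% and 5.57% of all genes. The list medians then went from 1.17 and 0.81 to 2.01 and 1.54. H2-K1 (chr17:33996017-34000347, minus strand), a classical class I heavy chain, had 752, 2606, 1341 and 2603 CPM and without the deep barcodes 577, 2716, 633 and 2658. Its log2 ratio was 1.79 (1.63 to 1.96) and 0.96 (0.83 to 1.09), and 2.24 and 2.07 without the deep barcodes. B2m, the light chain, stood at 1448, 3285, 1970 and 3704 CPM, and Tap1, a subunit of the peptide transporter, at 121, 280, 222 and 403 CPM. H2-K1 was therefore at the same level in both libraries with CD40 antibody, with or without PD1 antibody. Reads of the near-identical class I genes, H2-Q6 and H2-Q7 among them, may be split between copies.

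Type I interferon genes were higher in fewer cases, 9 of 17 in CD40 against control and 5 of 17 in combination against PD1. The shares over all genes were 4.87% and 4.43%. The list medians were 1.12 and 0.44. Isg15, a ubiquitin-like modifier, had 551, 1620, 1224 and 2644 CPM, with log2 ratios of 1.56 (1.37 to 1.75) and 1.11 (0.97 to 1.25). Ifit1, which binds foreign RNA, had 103, 274, 267 and 299 CPM: it was low in control and alike in the other 3 libraries. The Ifit genes are close paralogs.

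The interferon gamma list was also read cell by cell. In cells thinned to 1000 UMIs, the 22 interferon gamma genes together gave a median of 1 UMI per cell in control, 5 with CD40, 2 with PD1 and 10 with the combination. The lower and upper quartiles were 0 and 1, 2 and 9.5, 0 and 3, and 5 and 17 UMIs. No UMI of the list was seen in 44.1% of control members (64 of 145), 7.46% with CD40 (22 of 295), 26.1% with PD1 (30 of 115) and 1.89% with the combination (9 of 477). The 16 MHC class I genes gave medians of 5, 14, 6 and 15. For the interferon gamma list, the upper quartile of the control members lay below the lower quartile of the CD40 members.

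**Figure D4:**
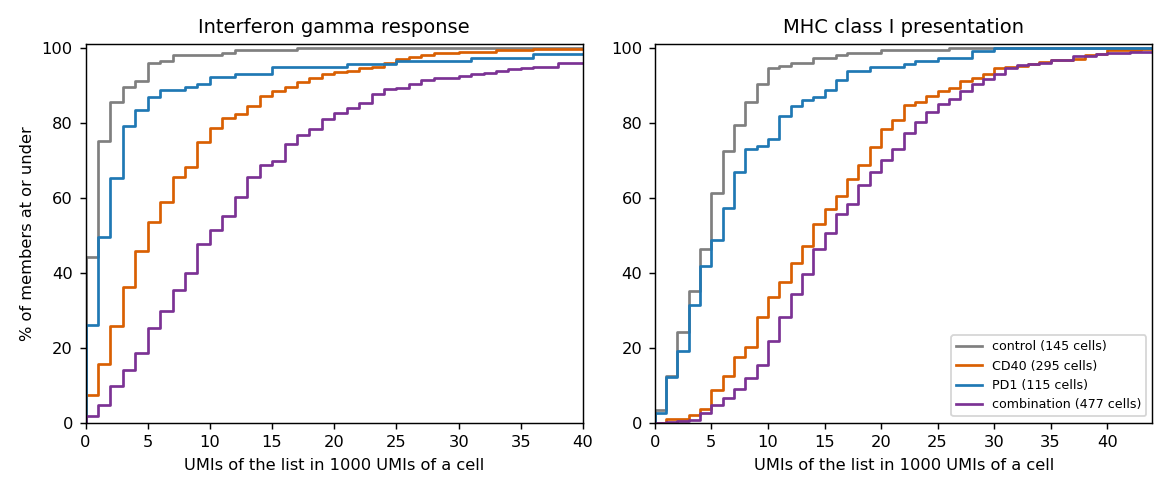
Percentage of members at or under a number of UMIs of the interferon gamma list (left) and the MHC class I list (right), each cell thinned to 1000 UMIs, 1 curve per library. For the interferon gamma list the medians are 1, 2, 5 and 10 in control, PD1, CD40 and combination, and for MHC class I the CD40 and combination curves lie close together.

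By the naming rule, 76 genes were higher by 2-fold or more with CD40 antibody in both comparisons. The 15 with the largest smaller ratio were Ngp, Prtn3, Ly6i, Elane, Gbp8, Cstdc5, Gbp4, Stfa2, Gbp9, Camp, Nos2, Tgtp1, Oas1g, Csta2 and Stfa1, and 11 of them kept a log2 ratio of 1 or more in both comparisons without the deep barcodes. The granule genes Ngp, Camp, Elane and Prtn3 were the 4 that did not. Under the same rule without the deep barcodes 96 genes passed, 61 of them among the 76. Of these 96, 17 were in the interferon gamma list, 5 in the type I interferon list, 13 in the MHC class I list and 5 in the stefin and cystatin list.

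Ly6i (chr15:74979534-74983430, minus strand), of the Ly6 family of membrane-anchored proteins, had the largest smaller ratio of those genes without the deep barcodes. It stood at 29.1 CPM in control, 660 with CD40, 31.7 with PD1 and 1062 with the combination. The log2 ratios were 4.50 and 5.07, and 5.15 and 5.60 without the deep barcodes. In thinned cells a Ly6i UMI was found in 2.76% (0.757 to 6.91) of control members, 31.2% (25.9 to 36.8) with CD40, 0.87% (0.022 to 4.75) with PD1 and 40.5% (36.0 to 45.0) with the combination, against 0.26%, 2.00%, 1.64% and 2.99% of T cell barcodes of the same libraries. The interval of the PD1 share held the T cell value, the control share was above the 0.26% of its own T cells on 4 cells with a UMI, and the 2 libraries with CD40 antibody lay far above both.

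Stefins and related cystatins are inhibitors of cysteine proteases that mouse neutrophils express from a cluster of near-identical genes, so reads may be split between copies. Of the list, 5 of 7 genes tested were higher in CD40 against control and 6 of 8 in combination against PD1, and Cst3, a cystatin typical of dendritic cells and macrophages, was lower in both. Among all genes 4.87% and 4.43% were higher, and 6.88% and 12.7% lower. Leaving out the deep barcodes, 5 of 7 and 5 of 8 of the list were higher and none lower. The shares over all genes were then 6.16% and 5.57% higher. Cstdc4 stood at 727 CPM in control, 2512 with CD40, 881 with PD1 and 2903 with the combination, with log2 ratios of 1.79 (1.62 to 1.96) and 1.72 (1.56 to 1.88). Stfa2l1 stood at 593, 1591, 270 and 1794 CPM, so the PD1 library was the lowest. A Stfa2l1 UMI was seen in 27.6%, 45.8%, 13.9% and 51.4% of thinned members.

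Receptors and adhesion molecules differed less. In CD40 against control 2 of 25 were higher, Fpr1 and Icam1, against 4.87% of all genes. In combination against PD1 Fpr1, Fpr2, Trem1, Clec4e, Tlr2 and Icam1 were higher and Itga4 lower. There 4.43% of all genes were higher and 12.7% lower. Clec4e, which senses mycobacterial glycolipids and dead cells, had 439, 861, 394 and 1379 CPM, with log2 ratios of 0.97 (0.75 to 1.20) and 1.81 (1.57 to 2.05). Trem1, which amplifies inflammatory signals, had 177, 244, 214 and 519 CPM and was highest in the combination. Cxcr2 had log2 ratios of -0.22 (-0.41 to -0.03) and -0.01 (-0.19 to 0.18).

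Acod1, Sod2, Casp4 and Nos2, which come from separate lists and were chosen after their values were seen, were each 2-fold or more higher in both comparisons of CD40 antibody. Acod1 makes itaconate, a metabolite with antimicrobial and anti-inflammatory roles, and is 1 of the 13 neutrophil markers above. It stood at 602 CPM in control, 1864 with CD40, 1306 with PD1 and 5295 with the combination, with log2 ratios of 1.63 (1.45 to 1.82) and 2.02 (1.89 to 2.15). An Acod1 UMI was seen in 20.7%, 49.8%, 33.9% and 77.1% of thinned members, against at most 3.3% of T cell barcodes. Sod2, the mitochondrial superoxide dismutase, had 55.9, 204, 95.2 and 576 CPM, and Casp4, the caspase that senses cytosolic lipopolysaccharide, had 69.4, 184, 66.1 and 279 CPM. Nos2, the inducible nitric oxide synthase, had 8.95, 79.8, 26.4 and 263 CPM, with 52.0% of its CD40 UMIs in 3 cells. For Acod1 and Nos2 the combination library thus lay well above each single antibody.

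Of the chemokines and cytokines, 6 of 22 genes tested were higher in CD40 against control (Cxcl9, Cxcl10, Ccl2, Ccl5, Ccl9 and Tnf) and 3 lower (Cxcl3, Ccl6 and Osm). In combination against PD1 8 of 22 were higher (Cxcl9, Cxcl10, Ccl2, Ccrl2, Il1b, Il1rn, Tnf and Nampt) and Cxcl16 was lower. Over all genes, 4.87% and 4.43% were higher in the 2 comparisons, and 6.88% and 12.7% lower. The list medians were 0.64 and 0.78, and 0.15 and 0.44 without the deep barcodes. Cxcl9 and Cxcl10 are also in the interferon gamma list. Il1b, the secreted interleukin 1 that needs cleavage by an inflammasome, had 2668 CPM in control, 3066 with CD40, 3495 with PD1 and 7333 with the combination. Its log2 ratio was 0.20 (0.11 to 0.30) in CD40 against control and 1.07 (0.99 to 1.15) in combination against PD1, and 0.04 and 0.74 without the deep barcodes. Cxcl2, a ligand of CXCR2, had 3574, 4246, 5902 and 10362 CPM. It was seen in 35.2%, 35.9%, 43.5% and 62.7% of thinned members and in at most 2.73% of T cell barcodes. With the deep barcodes left out Cxcl2 had 4572, 4704, 8832 and 11914 CPM. Il1b and Cxcl2 were therefore highest in the combination and nearly level between control and CD40, with PD1 between CD40 and the combination.

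Il1rn, the natural antagonist of the interleukin 1 receptor, had 1529, 2382, 1142 and 3556 CPM, with log2 ratios of 0.64 (0.52 to 0.76) and 1.64 (1.50 to 1.78). Ccl6, a chemokine of resting myeloid cells, ran the other way at 3583, 1711, 2253 and 1525 CPM. It was 2-fold or more lower in CD40 against control, with a log2 ratio of -1.07 (-1.16 to -0.97), and at -0.56 (-0.67 to -0.45) in combination against PD1. The ratios without the deep barcodes were -1.56 and -1.03. A Ccl6 UMI was seen in 78.6% of thinned control members, 49.5% with CD40, 72.2% with PD1 and 47.4% with the combination. The 2 libraries with CD40 antibody were the low ones for Ccl6.

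NF-kB targets, which include the feedback inhibitors Nfkbia and Tnfaip3, had 4 of 17 higher in CD40 against control and 5 of 17 in combination against PD1, with medians of 0.47 and 0.26. Over all genes, 4.87% and 4.43% were higher. Nfkbia stood at 651, 1198, 759 and 2124 CPM. Per thinned cell the list gave 5 UMIs at the median in control, CD40 and PD1 members and 7 in the combination. Without the deep barcodes the medians were 0.60 and 0.79. The interferon gamma list thus lay higher than the NF-kB list in both comparisons.

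Calls among glycolysis genes and transcription factors were near or below the shares over all genes. Those shares were 4.87% higher and 6.88% lower in CD40 against control, and 4.43% and 12.7% in combination against PD1. Of 20 glycolysis and hypoxia genes, Hk2 was lower in CD40 against control and Hk1 higher in combination against PD1, with medians of 0.07 and 0.09. Both medians lay above those over all genes, -0.14 and -0.33. Ldha, the lactate dehydrogenase of glycolysis, had 1437, 1425, 1391 and 1315 CPM. None of 16 transcription factors was 2-fold off in CD40 against control, and Egr1 alone was higher in combination against PD1. The medians of that list were -0.22 and -0.10. With the deep barcodes left out, 1 of 16 was lower in CD40 against control and 0 of 16 were called in combination against PD1.

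Of the genes described in tumour neutrophils, 5 of 20 were higher and 1 lower in CD40 against control, and 6 of 19 higher and none lower in combination against PD1, which is above the 4.87% and 4.43% of all genes. Cd274, Arg1, Wfdc17 and Nos2 were higher in both comparisons. The list medians were 0.44 and 0.17, and 0.06 and -0.13 without the deep barcodes, where 5 of 19 and 5 of 18 were higher. Vegfa, the vessel growth factor, had 123, 151, 137 and 135 CPM. Xbp1, a factor of the unfolded protein response, was highest in control at 562 CPM against 192, 241 and 220.

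Granule genes rested on few barcodes. Ngp and Camp, made in the marrow before release, had 1 UMI together in control, 3868 with CD40, 4 with PD1 and 1205 with the combination. In the CD40 library 3 cells held 99.3% of them, and in the combination 1 barcode of 60221 UMIs held 1176. Elane and Prtn3, of primary granules, had 99.5% to 100% of their UMIs in 3 cells of each of these libraries. The call of these 4 genes as higher with CD40 antibody rests on those barcodes. Mmp9, a gelatinase stored in tertiary granules, was spread more evenly at 624, 584, 571 and 293 CPM, lowest in the combination.

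Genes lower with CD40 antibody numbered 23 by the naming rule, and 5 of the 15 named ones kept a log2 ratio of -1 or less in both comparisons without the deep barcodes: Trf, Itgax, Zmynd11, Mbp and Maml3. The other 10 were H2-Eb1, Syngr2, Ifi205, Klrd1, Cst3, Itm2c, Wdfy4, Ccnd2, Ptms and Taok3. Under the same rule without the deep barcodes 14 genes passed, 3 of them among the 23. MHC class II genes had 7 of 8 lower in CD40 against control and 9 of 10 in combination against PD1, and without the deep barcodes 1 of 6 and 1 of 7. The shares of all genes called lower were 6.88% and 12.7%, and 5.12% and 10.4% without those barcodes. Cd74, the class II invariant chain, had 7258, 581, 3667 and 863 CPM with all members and 192, 338, 242 and 311 without the deep barcodes. The lower class II level thus goes with the dendritic cell markers of the deep barcodes and reverses for Cd74 without them.

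Trf (chr9:103204001-103230444, minus strand), the iron carrier transferrin, had 121 CPM in control, 34.4 with CD40, 106 with PD1 and 27.3 with the combination. Its log2 ratios were -1.81 (-2.42 to -1.21) and -1.95 (-2.54 to -1.35), and -2.01 and -2.28 without the deep barcodes. These levels rest on 40 to 65 UMIs per library, and 35.4% to 42.6% of them came from 3 cells. Fth1, the heavy chain of ferritin, which stores iron, was the most abundant of these genes and had 30092, 47316, 28506 and 57445 CPM. With the deep barcodes left out Fth1 had 36222, 48941, 39639 and 64483 CPM. Ftl1, the light chain, differed less, at 12506, 14386, 11449 and 12820 CPM with all members. Transferrin was thus low and the ferritin heavy chain high in the 2 libraries with CD40 antibody.

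With all members, smaller shares of genes were called in the comparisons of PD1 antibody than in those of CD40 antibody. PD1 against control pairs the smallest member totals, 378206 and 446830 UMIs, so differences there were harder to call. In PD1 against control 4.28% of 3785 genes were higher and 2.72% lower, and in combination against CD40 3.78% and 3.61% of 6907 (51.2% of the calls higher there, 72.4% under TMM scaling). Of the interferon gamma list, 14 of 17 and 10 of 21 genes tested were higher and none lower, with medians of 1.60 and 0.99, where the median over all genes was -0.02 and -0.16. Leaving out the deep barcodes, 5 of 10 and 9 of 21 were higher, with medians of 0.89 and 0.88. Of all genes 2.13% of 2578 were then higher and 2.44% lower in PD1 against control, and 2.33% of 6003 higher and 6.05% lower in combination against CD40. The MHC class I list had 6 of 14 and 0 of 16 higher, and the type I list 4 of 17 and 0 of 17. With the deep barcodes left out, MHC class I had 1 of 13 and 0 of 16 higher. Its median in PD1 against control went from 0.86 to 0.34. The type I list then had 6 of 15 and 0 of 17 higher. These comparisons reuse the 4 libraries of the comparisons above, so they are not independent of them.

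By the naming rule 10 genes were higher with PD1 antibody: Socs1, Gbp5, Hist1h1b, Clic4, Acod1, Ifi47, Traf1, Gpr132, Gbp2 and Irgm1. Of the 10, 7 kept a log2 ratio of 1 or more in both comparisons without the deep barcodes. The same rule, with its minimum level and UMIs, then passed 3 genes: Cxcl10, Socs1 and Irgm1, 2 of them among the 10. Gbp5 had 17.9, 185, 172 and 494 CPM, with log2 ratios of 3.26 (2.20 to 4.53) in PD1 against control and 1.41 (1.21 to 1.62) in combination against CD40. Irgm1, an immunity-related GTPase, had 89.5, 479, 278 and 967 CPM, with ratios of 1.63 and 1.01. Hspa1a, a heat shock chaperone, and Fry were lower, and 90.5% to 100% of the Hspa1a UMIs came from 3 cells.

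Members of the combination were also set beside the 231 cells the rule removed from the same library. Il1a chose the groups, and all these genes come from the same cells, so the values are a description with no test. A planned test over libraries was not run, because 1 library held at least 10 cells of both kinds. Median depth was 3897 UMIs at 0 Il1a UMIs, 4707 at 1 or 2 and 5463 at 3 or more. In members 30.3% of 6522 genes were 2-fold or more higher and 2.96% lower, with a median log2 difference of 0.64, or 0.18 after thinning.

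Inflammatory genes were lower in members. Lcn2 (chr2:32384633-32388252, minus strand), which withholds iron from bacteria, stood at 1123 CPM at 0 Il1a UMIs, 4103 at 1 or 2 and 8689 at 3 or more, a log2 difference of -2.36 (-2.41 to -2.31) for members. Ccl4, a chemokine for T cells and macrophages, had 3898, 7523 and 20894 CPM. Tnfaip3 had 108, 317 and 777 CPM. Both genes climbed with the Il1a class, and cells with 1 or 2 UMIs lay between the others. Saa3, an acute phase protein, and Csf3, the growth factor of neutrophils, were highest in the class of 3 or more, at 1401 and 384 CPM against at most 76.9 and 4.37. In that class 3 cells held 62.9% of the Saa3 UMIs and 30.6% of the Csf3 UMIs. A Saa3 UMI was seen in 2.55%, 3.53% and 8.66% of thinned cells over the 3 classes, and a Csf3 UMI in 0%, 1.18% and 13.4%. Of the NF-kB list 12 of 17 genes were lower in members and none higher, and of 25 chemokines and cytokines 11 were lower and 3 higher.

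Cxcr2, Selplg, Mmp9 and Alox5ap, chosen from several lists after their values were seen, were each 2-fold or more higher in members. Against the 30.3% of all genes that were higher, 3 of 13 neutrophil markers were higher and none lower, with a median of 0.04, and 4 of 25 receptor and adhesion genes were higher and 4 lower, with a median of 0.12. Of the secondary and tertiary granule list, which holds Mmp9, 8 of 12 were higher and Lcn2 was lower. The 8 include Camp and Ngp, with 98.9% and 98.7% of their member UMIs in 3 cells. Their log2 differences of 3.31 and 5.34 became -2.00 and 0.20 when the deep barcodes were left out. The deep barcodes of this comparison numbered 16 at 0 Il1a UMIs, 1 at 1 or 2 and 1 at 3 or more. This set is not the same as the 19 deep members of the library counted above. Cxcr2 had 832, 350 and 290 CPM over the 3 classes, with a log2 difference of 1.35 (1.19 to 1.51). Selplg, an adhesion ligand of the neutrophil surface, had 797, 276 and 228 CPM. Mmp9 had 317, 192 and 80.6 CPM, and Alox5ap, needed for leukotriene synthesis, 1166, 538 and 310. For Cxcr2, Selplg and Alox5ap the cells with 1 or 2 Il1a UMIs were nearer in CPM to the removed cells than to those at 0. For Cxcr2 the combination members lay near the members of the other libraries, at 739 CPM.

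Interferon genes hardly separated the groups. Gbp2 had 2265, 2121 and 1897 CPM, Gbp4 721, 975 and 675, and B2m 3712, 3670 and 3119. The largest of these 3 differences was 0.25 (0.20 to 0.30) on the log2 scale. Cd274 was somewhat lower in members, at 1800, 2653 and 2845 CPM. Trem1 stood at 515, 536 and 488 CPM. In the combination library the interferon genes named here were thus high in members and in removed cells alike, whereas Lcn2, Ccl4 and the NF-kB targets separated them.

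**Figure D5:**
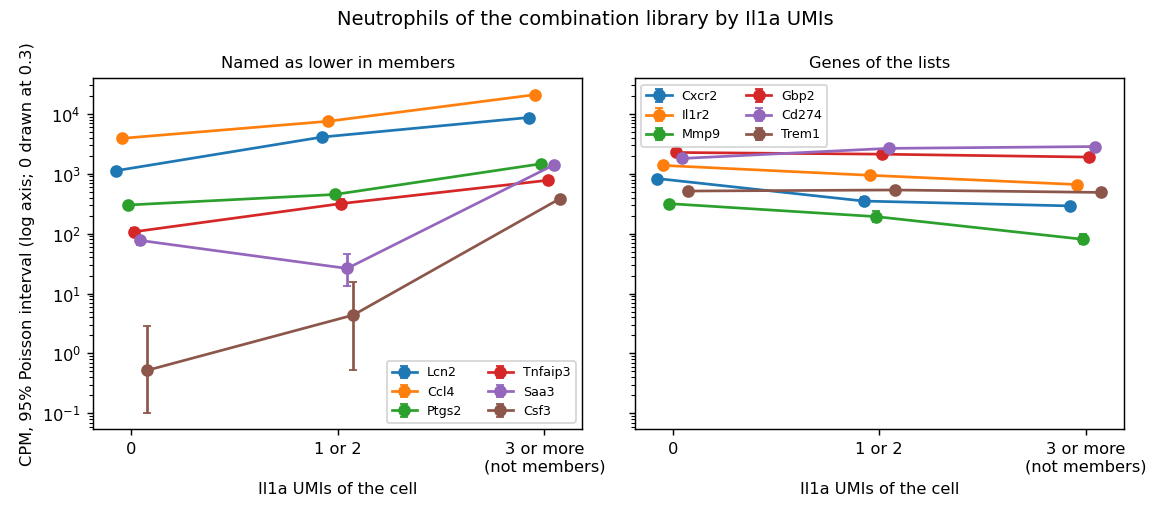
CPM on a log axis (95% Poisson interval) in neutrophils of the combination library by Il1a UMIs: 0 (393 cells), 1 or 2 (85 cells) and 3 or more (231 cells, not members). Left, genes named as lower in members. Right, genes of the lists. Lcn2 and Ccl4 climb over the 3 classes, Cxcr2 and Mmp9 decline, and Gbp2 and Trem1 stay nearly level.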

How the data were processed

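The deposited files hold raw UMI counts per gene and barcode for 32285 genes, made by the authors with Cell Ranger 7.0.0 on GRCm38, per the submitters' processing notes; no source used here gives the annotation release or a cell filter. Counts were whole numbers in all 4 libraries. The members and the gene lists were chosen with earlier results of these data known.

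Member UMIs were summed per library and expressed as CPM with exact Poisson 95% intervals. Log2 ratios of CPM carry exact conditional binomial 95% intervals, a count below 3 UMIs was set to 3, and no ratio was read where both libraries had 3 UMIs or fewer. Shares carry Clopper-Pearson 95% intervals. PCR duplicates are removed by the UMIs, and all intervals cover counting error only, not the spread between mice. Member totals ran from 378206 to 2381377 UMIs, so levels are coarser in the control and PD1 libraries. In both comparisons of an antibody, named genes had in the higher library 50 CPM or more from 30 UMIs or more, at least 0.5 times the CPM of all other kept barcodes, log2 ratios of 1 or more with the same sign, and ranked among the 15 largest by the smaller ratio. Mitochondrial, ribosomal protein, haemoglobin, immunoglobulin, T cell receptor, Xist, Y-linked and predicted genes and those of the rule were left out. List medians used genes with at least 10 UMIs over the 4 libraries. By Il1a state, genes were named by size alone, after their values were seen. The planned edgeR test over libraries could not be fitted with 1 library holding at least 10 cells of both states.

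Of the list symbols, Mx1, Mx2, Aldoa and BC100530 were not used, and values of some list genes are not reported here. Alternatives were at least 500 genes, S100a8 and S100a9 at 30 or more, Il1a at 0, thinning to 1000 UMIs, Scrublet scores under 0.25, TMM factors (edgeR 4.0.16), a minimum of 10 UMIs and, added after seeing the data, leaving out barcodes over 3 times the median. The ratio and interval code was tested on simulated data. The code ran on Python 3.11.15 with scanpy 1.11.5 (Scrublet), numpy 2.4.6, scipy 1.17.1, pandas 2.3.3 and matplotlib 3.10.9. Gene coordinates are from GENCODE on GRCm38.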

Additional observations from a re-analysis of the deposited data

Results flagged for a closer look

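In 6 list genes of the members the ratio of CPM pointed one way in CD40 against control and the other way in combination against PD1, with both counting intervals off 0; the difference between the comparisons was not tested. Cxcl3, a ligand of CXCR2, had 976 CPM in control, 214 with CD40, 1071 with PD1 and 1497 with the combination, for log2 ratios of -2.19 and 0.48. Osm, an interleukin 6 family cytokine, had 248, 84.5, 214 and 290 CPM, for -1.56 and 0.44. Ptgs2, the inducible cyclooxygenase, had 311, 187, 130 and 330 CPM, for -0.73 and 1.35. Egr1, an immediate early transcription factor, had 233, 171, 151 and 324 CPM, for -0.45 and 1.11. In summed CPM of all members, Cxcl3, Osm, Ptgs2 and Egr1 were therefore lower with CD40 antibody alone and higher where it was given with PD1 antibody. In thinned cells the higher side was less clear. Osm was seen in 14.8% (8.85 to 22.6) of PD1 and 18.0% (14.7 to 21.8) of combination members, and Cxcl3 in 13.9% (8.17 to 21.6) and 19.5% (16.0 to 23.3). With the deep barcodes left out, Egr1 was no longer called higher in combination against PD1. Oasl1, an interferon-induced gene, had 73.9, 170, 177 and 130 CPM, for 1.20 and -0.45. Fabp5, a fatty acid binding protein, had 197, 434, 542 and 218 CPM, for 1.14 and -1.31, with 58.0% of its PD1 UMIs in 3 cells.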

How the results depend on the processing

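Of 972 recomputed values, 802 stayed on the same side and within the counting error or count limits set, 155 moved and 15 changed sign; the cause was not tested. No paired analysis was possible because each group is 1 library. The 8 alternatives were not run as tests for genes by Il1a state, because the test itself could not be fitted. Values after thinning and without the deep barcodes are given there as description only. Counts of genes 2-fold higher and lower after thinning to 1000 UMIs were 155 and 118 for CD40 against control, 165 and 229 for combination against PD1, 40 and 34 for PD1 against control, and 109 and 148 for combination against CD40. With TMM scaling they were 450 and 166, and 662 and 279, in the comparisons of CD40 antibody, and 143 were lower in combination against CD40. Without the deep barcodes 233 and 533 were lower in the comparisons of CD40 antibody, 55 were higher and 63 lower in PD1 against control, and 140 were higher in combination against CD40. A minimum of 10 UMIs gave 666 and 1212 lower in the comparisons of CD40 antibody, and 345 higher and 209 lower in PD1 against control. With all members the counts were 259 and 366, 280 and 803, 162 and 103, and 261 and 249.

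List medians in combination against PD1 moved to 1.93 with TMM scaling for the interferon gamma list, to 0.92 with TMM scaling for type I interferon, to 1.54 without the deep barcodes, 1.25 thinned and 1.29 with TMM scaling for MHC class I, and to 0.79 without the deep barcodes for NF-kB. In CD40 against control, type I interferon moved to 1.51 and MHC class I to 2.01 without the deep barcodes. Without the deep barcodes, signs changed for MHC class II in PD1 against control (0.31), tumour-associated neutrophil genes (-0.13), secondary and tertiary granule genes (-0.32) and Ngp (-0.37) in combination against PD1, Prtn3 (-1.44), Syngr2 (0.65) and Itm2c (0.10) in CD40 against control, and Gpr132 (-0.056) in PD1 against control. Thinning turned the tumour-associated list (-0.011), the granule list (-0.27) and Syngr2 (0.035) in combination against PD1, Ccnd2 (0.27) in CD40 against control and Hist1h1b (-0.40) in PD1 against control. In combination against CD40, members at 0 Il1a UMIs gave -0.011 for the stefin list, and 30 or more S100a8 and S100a9 UMIs gave 1.80 for Hspa1a. The control and PD1 libraries hold 154 and 118 members, so genes near 30 UMIs there could differ by less than 2-fold without being detectable at this depth.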

Other observations

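Cell death genes of the members included 2 caspases of the inflammasome pathway. Casp1, which cleaves the interleukin 1 beta precursor, had 40.3 CPM in control, 79.8 with CD40, 55.5 with PD1 and 110 with the combination, for log2 ratios of 0.99 (0.25 to 1.80) and 0.99 (0.35 to 1.71) in CD40 against control and combination against PD1. Without the deep barcodes the ratios were 1.61 and 1.81. Mcl1, the survival factor that neutrophils depend on, had 2240, 1927, 2369 and 2491 CPM and differed little. Of the survival and cell death list, 2 of 16 genes were higher in CD40 against control, Casp4 and Pmaip1, against 4.87% of all genes. In combination against PD1, 2 of 17 were higher, Fas and Casp4, against 4.43% of all genes, and Bcl2a1d was lower. With the deep barcodes left out, 4 of 16 and 6 of 17 were higher, against 6.16% and 5.57% of all genes, and none was lower.

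Dividing cells were rare among members. A UMI of Mki67, a proliferation gene, was seen in 0.339% to 1.47% of thinned members and in 7.32% to 12.3% of T cell barcodes. Spp1, which encodes osteopontin, had 548, 1246, 1296 and 1478 CPM, with 36.2% to 73.5% of its UMIs in 3 cells of each library.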
